A study of Mus musculus with 3 samples.

Results

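Heat shock proteins and chaperonins were read in mouse LKS cells, sorted from marrow by the absence of lineage markers and the presence of Kit and Sca1, a gate that keeps blood stem cells and the first progenitors. The set covered the HSP70, HSP90, HSP110, small heat shock protein and HSP60/HSP10 genes, the J proteins of classes A, B and C, the 8 subunits of the cytosolic chaperonin, the heat shock factor Hsf1 and the HSP70-binding protein Hspbp1. Members were chosen by symbol alone, and the endoplasmic reticulum genes Hspa5, Hsp90b1 and Dnajb11 and the binding protein Hspbap1 were left out. This gave 79 of 24982 symbols. LKS cells of wild-type recipient mice (WT) gave 2 libraries, and those of recipients deficient in CD73, the cell-surface enzyme that makes adenosine from AMP and is encoded by Nt5e, gave 1 library (KO). The sources used here give neither strain, age and kind of transplant nor the donor or recipient origin of the sorted cells. The labels do not state that the 2 WT libraries stem from different mice, so p-values measure only the spread between these libraries, which may be technical.

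Chaperones bind unfolded proteins and help them reach or regain their folded form. HSP70 takes hold of short exposed stretches in a cycle that J proteins start and nucleotide exchange factors such as HSP110 end, HSP90 acts later on kinases and receptors, and the cytosolic chaperonin, a double ring of 8 kinds of subunit, encloses actin, tubulin and other clients. The transcription factor HSF1 switches on the inducible genes of the set by binding heat shock elements, inverted repeats of GAA, and haematopoietic stem cells are known to depend on tight control of protein synthesis and folding.

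Depth was low, with totals of 361638 and 324954 gene counts in WT replicates 1 and 2 and of 264704 in KO. Values below are given in this order. A count of 0 allows up to 3 counts by counting error alone, or 8.30, 9.23 and 11.3 CPM (counts scaled to a library's gene-count total). The target gene Nt5e could not check the label, with 0 counts in all 3 libraries. Of the sorting gate, Kit had 187, 207 and 147 counts and Ly6a, which encodes Sca1, 60, 19 and 36. All 10 stem and progenitor markers examined had counts in every library, the fewest for Cd48 with 24, 46 and 1. In CPM, KO was below both WT libraries in 7 of the 10 and above both in 1, beside 38.2% and 31.1% of all tested genes. The 10 markers summed to 2870, 3410 and 2380 CPM. The summed level of 9 neutrophil markers was 824, 1114 and 378 CPM, that of 7 monocyte and macrophage markers 155, 548 and 491 CPM, and that of 10 erythroid markers 683, 419 and 839 CPM, of which 4, 2 and 5 had counts. The erythroid markers Klf1, Hba-a1, Hba-a2 and Hbb-bs were at 0 in every library, while Hbb-bt had 151, 42 and 114 counts, Car2 92, 94 and 60, Epor 3, 0 and 25, and Car1 0, 0 and 20. Of the lineage-defining markers of other cells, Cd79a, Ms4a1, Cd3e and Col1a1 were at 0 throughout, and Cd79b had 5, 17 and 0 counts. Of 7 markers each, the B lineage summed to 16.6, 64.6 and 7.56 CPM, T and NK cells to 194, 105 and 155 CPM, nearly all of it Nkg7, and stroma and endothelium to 144, 191 and 128 CPM, mostly Pecam1. Their part in the results was not tested, and fewer cells of a type cannot be told apart from less RNA per cell.

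Of the 79 members, 59 had a count in some library, 24 reached 50 counts in at least 1 library and 20 were at 0 throughout. The whole set held 1.15%, 1.09% and 0.926% of all counts (exact 95% Clopper-Pearson intervals 1.12% to 1.19%, 1.05% to 1.12% and 0.890% to 0.964%, covering counting error only). KO was thus below both WT libraries, by a log2 ratio of -0.27 to the WT mean. No test was made of this sum. In the edgeR quasi-likelihood test over all genes, with Benjamini-Hochberg adjustment, 47 members were tested, 0 were called higher and 0 lower, where the background was 0.1% of genes called higher (8 of 7984) and 0% called lower. With p under 0.05 before adjustment, edgeR had 0 members higher and 3 lower (6.38% of those tested), beside a background of 3.53% higher and 6.51% lower. DESeq2 also called 0 members, with 0 higher and 4 lower at an unadjusted p under 0.05. Its background was 0.138% of genes called higher and 0.0251% lower, or 3.98% and 9.23% unadjusted. The median log2 fold change of the tested members was -0.44, against -0.31 over all tested genes. Of these members 18 were positive and 29 negative, beside 3441 positive and 4543 negative of all 7984 tested genes. Without WT replicate 2 the members' median was -0.16, beside -0.11 over all tested genes, and without WT replicate 1 it was -0.39, beside -0.13. Restricted to genes with counts in all 3 libraries, it was -0.35 over 40 members and -0.11 over 6296 genes.

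**Figure D1:**
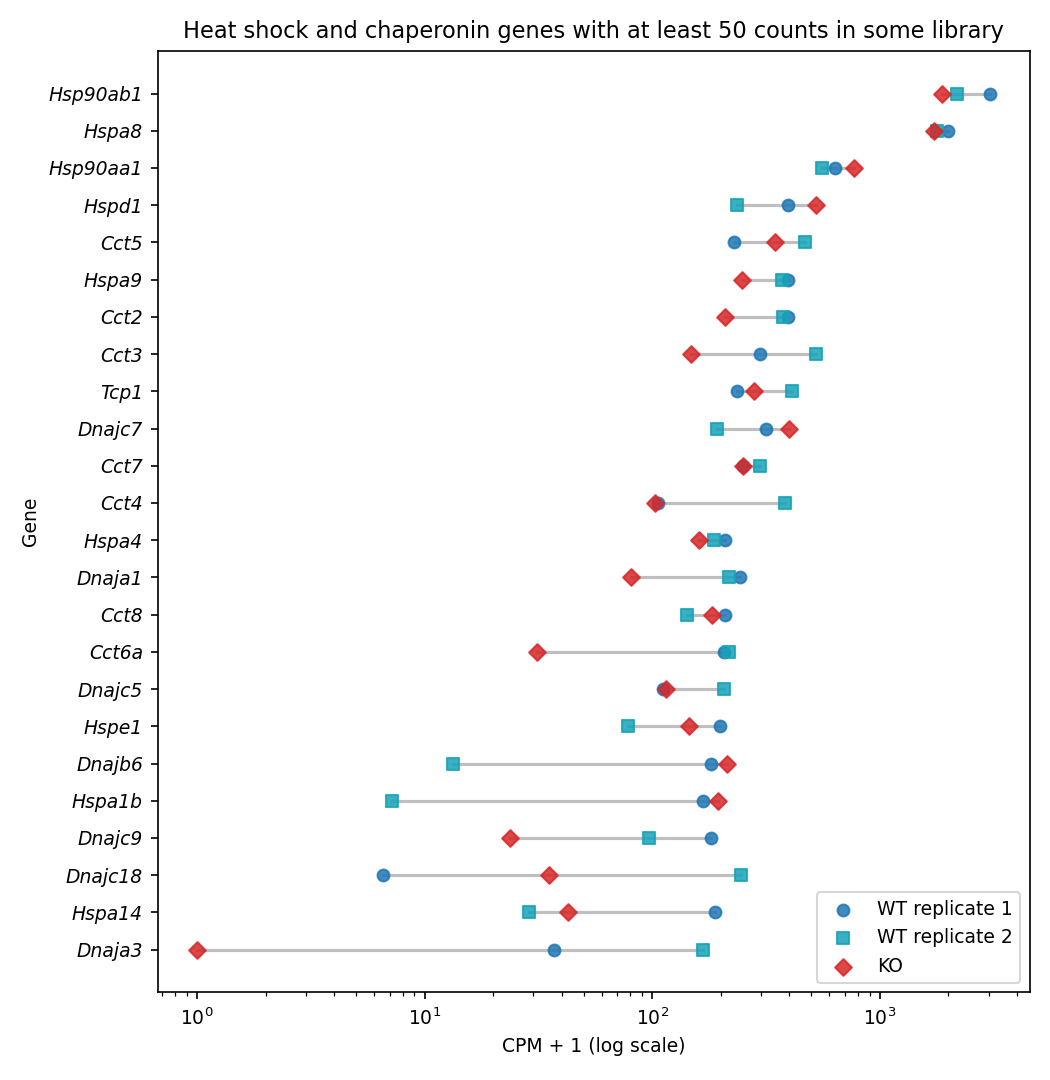
Level of each of the 24 members that reached 50 counts in at least 1 library, as CPM plus 1 on a log scale, with 1 point per library joined by a grey line. Hsp90ab1 and Hspa8 lie highest in all 3 libraries, and Hspa1b, Dnajb6 and Dnajc18 show the widest gaps within the WT pair, while Dnaja3 was at 0 in KO.

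The cytosolic HSP90 genes and constitutive HSP70 had the highest counts of the set in every library. Hsp90ab1 (chromosome 17, 45567778 to 45573261, mm10), the constitutive HSP90, had 1102, 706 and 496 counts, or 3047, 2173 and 1874 CPM. KO was the lowest, and the gap within the WT pair was larger than that between KO and WT replicate 2 (log2 fold change -0.44, SE 0.28, adjusted p 0.65, edgeR). Hsp90aa1, the stress-inducible HSP90, had 230, 181 and 203 counts (636, 557 and 767 CPM) and was highest in KO (log2 fold change 0.40, SE 0.54, edgeR adjusted p 0.86). Hspa8, the constitutive HSP70 that also uncoats clathrin vesicles, had 720, 581 and 455 counts, or 1991, 1788 and 1719 CPM. Its log2 fold change was -0.10 (SE 0.32, edgeR adjusted p 0.95), and it was the most even of the abundant members. Per length, on the deposited FPKM summed over transcripts, Hsp90ab1 led in both WT libraries with 1222 and 873, and Hspa8 followed with 976 and 871. In KO the order was reversed, with 851 for Hspa8 and 758 for Hsp90ab1. Hsp90aa1 and Hsp90ab1 share 76.8% of their aligned coding bases (longest reading frames of GENCODE M21 transcripts).

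The inducible HSP70 genes differed widely within the WT pair. Hspa1a, Hspa1b and Hspa1l lie side by side on chromosome 17 of mm10, at 34969359 to 34972156, 34956429 to 34959238 and 34972703 to 34979228. Hspa1b, a heat-inducible HSP70, had 60, 2 and 51 counts, or 166, 6.15 and 193 CPM. Hspa1a, which encodes nearly the same protein, had 31, 9 and 24 counts, and Hspa1l, the testis-enriched relative, 22, 0 and 21. All 3 were low in WT replicate 2 and at like levels in WT replicate 1 and KO. Hspa1b was 27-fold higher in WT replicate 1 than in WT replicate 2 (exact 95% interval of the ratio 7.14 to 228, counting error only), and Hspa1a 3.10-fold (1.44 to 7.39). The summed level of the cluster was 312, 33.9 and 363 CPM, so that the log2 ratio of KO to WT was 1.07 with both WT libraries, 3.42 once WT replicate 1 was left out and 0.21 once WT replicate 2 was. None of the 3 passed the test (log2 fold changes 1.18, SE 1.13, for Hspa1b, 0.71, SE 1.52, for Hspa1a and 1.39, SE 1.73, for Hspa1l, edgeR adjusted p 0.80, 0.93 and 0.85). Hspa1a and Hspa1b share 99.6% of their coding bases, with 8 mismatches in 1926 aligned bases, so the split of reads between them is uncertain.

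Promoter windows of 3 members that were low in WT replicate 2, and of the J protein gene Dnaja1, which was lowest in KO, are shown because they carry the letters of the heat shock element. Each is the 250 bases before a transcript start in RefSeq (GRCm38.p6, the assembly of mm10), printed 5′ to 3′ on the strand of the gene, and capitals mark every match to GAANNTTC or TTCNNGAA, including runs of 3 repeats (alternating GAA and TTC units with any 2 bases between neighbours, which contain the shorter matches). Both strands were searched, since each letter string is its own reverse complement or that of its partner.
Hspa1b (chr17:34959239-34959488, minus strand): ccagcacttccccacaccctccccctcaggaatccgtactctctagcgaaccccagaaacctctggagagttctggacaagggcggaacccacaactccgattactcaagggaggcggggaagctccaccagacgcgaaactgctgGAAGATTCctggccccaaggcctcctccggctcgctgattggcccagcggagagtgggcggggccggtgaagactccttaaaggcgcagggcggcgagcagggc
Hspe1 (chr1:55087898-55088147, plus strand): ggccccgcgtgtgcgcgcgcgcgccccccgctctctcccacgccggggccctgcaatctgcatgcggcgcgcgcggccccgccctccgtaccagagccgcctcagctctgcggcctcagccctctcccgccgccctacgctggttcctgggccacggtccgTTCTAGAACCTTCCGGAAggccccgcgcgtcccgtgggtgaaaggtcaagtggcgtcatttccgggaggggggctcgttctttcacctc
Dnajb6 (chr5:29735648-29735897, plus strand): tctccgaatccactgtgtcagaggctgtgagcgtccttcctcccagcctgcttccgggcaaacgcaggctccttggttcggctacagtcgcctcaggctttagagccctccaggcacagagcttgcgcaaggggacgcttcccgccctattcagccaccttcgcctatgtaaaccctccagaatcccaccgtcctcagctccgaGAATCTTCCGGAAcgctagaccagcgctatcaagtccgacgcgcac
Dnaja1 (chr4:40722218-40722467, plus strand): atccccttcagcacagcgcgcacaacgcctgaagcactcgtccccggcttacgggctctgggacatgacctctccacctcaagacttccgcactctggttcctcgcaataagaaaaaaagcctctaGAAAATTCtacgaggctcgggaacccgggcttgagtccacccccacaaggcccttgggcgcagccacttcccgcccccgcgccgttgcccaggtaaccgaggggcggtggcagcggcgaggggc
The Hspa1a window differs from that of Hspa1b at 3 of 250 positions, T44C, C47T and G249T (Hspa1b base first, counted from 1 at the 5′ end), and holds the same match. The Hspe1 window reads across the head-to-head start region that Hspe1 shares with Hspd1. An Hspd1 window on the other strand holds the same matches, while that at another Hspd1 start holds 0. Dnaja1 windows at other transcript starts also hold 0 matches. Of the 63 members with a window in the RefSeq table, 16 (25.4%) had at least 1 match of 2 repeats, against 14.5% of all 27025 genes with a window, and 3 (Hspd1, Hspe1 and Dnajb6, or 4.76%) had 3 repeats, against 0.514%. On the scale of windows, 12.8% of 32851 held 2 repeats and 0.466% held 3. Hspa1l, Hspa14 and Dnajc7 were also lowest in WT replicate 2 in CPM, and their windows held 0 matches. Whether the letters go with the level was not tested. A match of letters is a description and not a binding site, and no window could be read for Hsp90aa1, Hsp90ab1, Hspa8, Hspa9 or Hsf1.

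Dnajb6, a class B J protein that keeps aggregation-prone proteins soluble, also had a wide WT gap in the same direction, with 65, 4 and 56 counts (180, 12.3 and 212 CPM). It lies on chromosome 5 at 29735898 to 29786478. WT replicate 1 was 14.6-fold above WT replicate 2 (5.44 to 55.2, counting error only), and the log2 fold change of KO was 1.16 (SE 1.09, edgeR adjusted p 0.80). The gene count is the highest over 6 listed transcripts, and these were not the same in the libraries. The non-coding NR_152863 held 65, 0 and 43 counts, and NM_001037940 held 10, 4 and 56. The WT gap of the gene count thus sets different transcripts against each other. With the mean or the sum over transcripts, the log2 fold change of KO was 2.07 or 2.05 (edgeR adjusted p 0.74 and 0.67). The other carriers of the element letters did not share one pattern. Hsph1, an HSP110 exchange factor, had 7, 18 and 11 counts and was highest in WT replicate 2, Hspb6 had 12, 23 and 14 counts, and Hspb1, the best known small heat shock protein, was at 0 in every library.

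The mitochondrial chaperones Hspd1 (HSP60) and Hspe1 (HSP10), which together form the folding chamber of the matrix, lie head to head on chromosome 1 at 55077833 to 55088243 and 55088148 to 55091317. Hspd1 had 142, 76 and 139 counts, or 393, 234 and 525 CPM, and Hspe1 had 71, 25 and 38, or 196, 76.9 and 144 CPM. Both were lowest in WT replicate 2, by 1.68-fold (1.26 to 2.25) and 2.55-fold (1.60 to 4.20) below WT replicate 1 in counting intervals. KO stood above both WT libraries for Hspd1 and between them for Hspe1, and the log2 fold changes were 0.78 (SE 0.69) and 0.10 (SE 1.11, edgeR adjusted p 0.79 and 0.99). Hspe1 was at -0.42 without WT replicate 2 and at 0.95 without WT replicate 1. Exons of the pair overlap on opposite strands over 112 bases, and reads there cannot be told apart where the use of strand is not stated. Hspa9, the HSP70 of the matrix that pulls in imported proteins, had 142, 120 and 65 counts (393, 369 and 246 CPM), so KO was below a close WT pair of 381 ± 16.5 CPM (SD, n = 2), with a log2 fold change of -0.59 (SE 0.78, edgeR adjusted p 0.86).

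**Figure D2:**
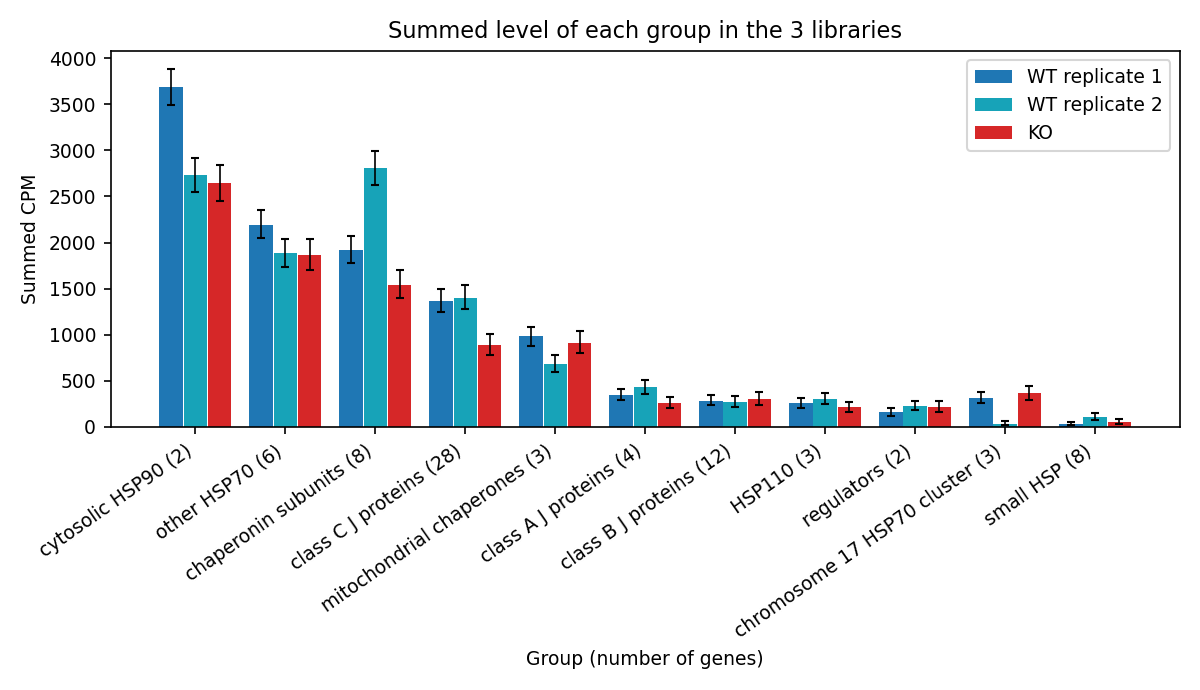
Summed CPM of each role group in the 3 libraries, with the number of genes in brackets and exact 95% Clopper-Pearson intervals of the share as error bars (counting error only). The chaperonin and class C bars of KO (1541 and 892 CPM) lie below those of both WT libraries, and the chromosome 17 HSP70 cluster is low in WT replicate 2 alone.

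The 8 chaperonin subunits summed to 1919 and 2803 CPM in WT and 1541 CPM in KO, with 694, 911 and 408 counts behind the sums. KO was below both WT libraries by a log2 ratio of -0.62 to their mean, and by -0.86 and -0.32 when WT replicate 1 or 2 was left out, while the WT replicates differed from each other by 0.55 on the same scale (2361 ± 625 CPM, SD, n = 2). The lower sum came from 4 of the 8 genes. Cct6a, the zeta subunit (chromosome 5, 129787356 to 129846443), had 74, 70 and 8 counts, or 205, 215 and 30.2 CPM. This is a close WT pair (210 ± 7.63 CPM, SD, n = 2) with KO far below it, and Cct6a had the smallest p of the subunits, which was still not past the threshold (log2 fold change -2.74, SE 1.29, unadjusted p 0.033, edgeR adjusted p 0.44). Cct3, the gamma subunit (chromosome 3, 88297135 to 88321766), had 107, 169 and 39 counts, or 296, 520 and 147 CPM (log2 fold change -1.42, SE 0.83, edgeR adjusted p 0.60). Cct2, the beta subunit, had 143, 121 and 55 counts, or 395, 372 and 208 CPM (log2 fold change -0.84, SE 0.80, edgeR adjusted p 0.80). Cct4, the delta subunit, had 38, 124 and 27 counts, or 105, 382 and 102 CPM, where KO and WT replicate 1 were at like levels and WT replicate 2 stood 3.63-fold above the latter (2.51 to 5.37). The other 4 lay between the WT libraries in KO: Tcp1, the alpha subunit, with 85, 133 and 74 counts, Cct5 with 82, 152 and 91, Cct7 with 90, 96 and 66, and Cct8 with 75, 46 and 48. Their log2 fold changes ran from -0.16 for Tcp1 to 0.09 for Cct8, and each of the 4 had the other sign when 1 WT library was left out: Tcp1 0.28, Cct7 0.03 and Cct8 -0.16 without WT replicate 2, and Cct5 -0.39 without WT replicate 1. Cct4, at -1.20, was at -0.01 without WT replicate 2.

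The subunits enter the ring in equal numbers, so their levels per length were also set beside each other. On the deposited FPKM summed over transcripts, they ranged from 53.7 (Cct4) to 213 (Cct2) in WT replicate 1, from 64.8 (Cct8) to 283 (Cct5) in WT replicate 2 and from 14.1 (Cct6a) to 209 (Cct5) in KO. The highest was thus 3.97 times the lowest in WT replicate 1, 4.37 times in WT replicate 2 and 14.8 times in KO, and the coefficient of variation over the 8 genes was 38.5%, 42.5% and 59.3%. Without Cct6a, which had 8 counts in KO, the highest was 3.97, 4.37 and 3.98 times the lowest and the coefficient of variation 39.1%, 38.9% and 46.2% (added after seeing the data). The order was not shared: Cct5 ranked 3 in WT replicate 1 and 1 in the other libraries, and Cct2 ranked 1, 4 and 3. Cct4 ranked 8, 5 and 7, and Cct6a 6, 7 and 8. With the WT pair as the only spread, the ranks of neighbours in this order cannot be separated. Exons of Cct6a, Cct7, Cct8 and Tcp1 overlap genes on the opposite strand, among them Psph (0, 10 and 3 counts) for Cct6a and Usp16 (28, 7 and 34 counts) for Cct8.

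**Figure D3:**
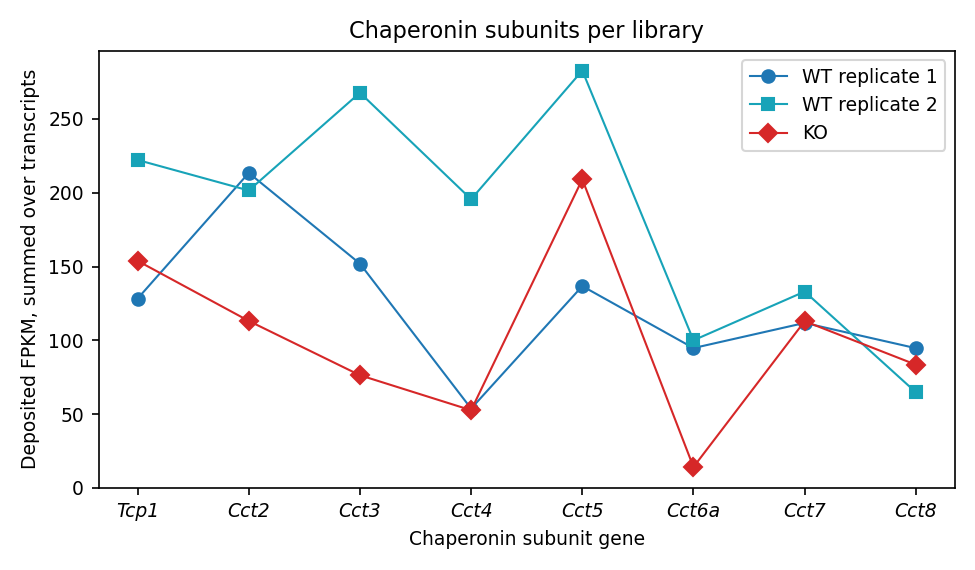
Deposited FPKM, summed over transcripts, of the 8 chaperonin subunit genes, with 1 line per library. KO dips to 14.1 at Cct6a and reaches 209 at Cct5, and WT replicate 2 is the highest library for every subunit except Cct2 and Cct8.

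J proteins bring clients to HSP70 and start its ATPase through their J domain. The 44 J protein genes summed to 2002 and 2102 CPM in WT (2052 ± 70.6, SD, n = 2) and 1458 CPM in KO, a log2 ratio of -0.49. On summed FPKM the same genes gave 854, 730 and 734, so that KO lay between the WT libraries (log2 ratio -0.11), an alternative added after seeing the data. The lower KO sum in CPM lay in class A (348, 428 and 261 CPM) and class C (1369, 1400 and 892 CPM), while class B gave 285, 274 and 306 CPM. In class A, Dnaja1, the main cytosolic J protein of this class (chromosome 4, 40722468 to 40734965), had 87, 70 and 21 counts, or 241, 215 and 79.3 CPM, with KO below a close WT pair (log2 fold change -1.48, SE 1.10, edgeR adjusted p 0.74). Dnaja2, its close relative, went the other way with 26, 15 and 48 counts, or 71.9, 46.2 and 181 CPM (log2 fold change 1.65, SE 1.23, edgeR adjusted p 0.74; named after its values were seen). Dnaja3, the J protein of mitochondria, had 13, 54 and 0 counts. Against a floor of 3 KO counts it was at least 8.61-fold lower than WT. This limit covers counting error only and not the spread between libraries. The limit became 3.17-fold against WT replicate 1 alone and 14.7-fold against WT replicate 2 alone. Dnaja3 had the smallest p of all members (unadjusted p 0.0066, edgeR adjusted p 0.25). It shares 153 exon bases with Coro7 on the opposite strand, which had 230, 222 and 130 counts. Dnaja1 shares 608 exon bases with Smu1 on the opposite strand (39, 28 and 34 counts).

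Class C holds J proteins that have little in common outside the J domain. Dnajc7, which passes clients between HSP70 and HSP90, was the most abundant of class C in WT replicate 1 and KO. In WT replicate 2 Dnajc18 and Dnajc5 stood above it. Dnajc7 had 114, 62 and 105 counts (315, 191 and 397 CPM, log2 fold change 0.68, SE 0.77, edgeR adjusted p 0.84). KO was above both WT libraries. Dnajc9, a histone chaperone, had 65, 31 and 6 counts (180, 95.4 and 22.7 CPM, log2 fold change -2.55, SE 1.51, edgeR adjusted p 0.61), and lies on chromosome 14 at 20384638 to 20388910. Dnajc1, of the endoplasmic reticulum, had 46, 19 and 0 counts (unadjusted p 0.0085, edgeR adjusted p 0.26, named after its values were seen). In KO it was at least 8.35-fold lower against the floor of 3 counts (counting error only). Against WT replicate 2 alone the limit was 5.16-fold, and against WT replicate 1 alone 11.2-fold. It shares 749 exon bases with Mllt10 on the opposite strand (46, 28 and 10 counts). Dnajc5, the cysteine string protein of secretory vesicles, had 40, 67 and 30 counts, with KO between the WT libraries (log2 fold change -0.44, or 0.06 without WT replicate 2). The widest WT gap of the set was in Dnajc18, with 2, 79 and 9 counts, a 44.0-fold difference between WT replicates 2 and 1 (11.8 to 369) with KO between, so that the log2 fold change of -1.81 was 2.56 without WT replicate 2. Hspa14, a ribosome-associated HSP70 relative, also had a WT gap, with 68, 9 and 11 counts, 6.79-fold (3.37 to 15.5) higher in WT replicate 1. KO lay between, and its log2 fold change of -1.34 was 0.63 without WT replicate 1.

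By size alone, 5 of the 24 members that reached 50 counts were at least 2-fold lower in KO than in each WT library on CPM plus 1, which is 20.8% beside a background of 17.9% of such genes, and 0 were 2-fold higher, beside 9.25%. The 5 were Cct3, Cct6a, Dnaja1, Dnaja3 and Dnajc9. Cct3 was lost with TMM-scaled CPM, a pseudocount of 5 CPM or the deposited FPKM, which left 4 of 24 (16.7%) beside backgrounds of 17.6%, 17.2% and 17.1%. Among the 41 members with at least 20 counts, 10 were lower by this measure (background 22.6%) and Dnaja2 alone was higher (background 12%). KO lay below both WT libraries in 22 of the 47 tested members (46.8%, background 38.2%) and above both in 10 (21.3%, background 31.1%). The gap within the WT pair was at least 2-fold in 8 of the 24 members (33.3%), beside 44.6% of all genes with 50 counts. Its median was 0.77 on the log2(CPM + 1) scale, beside a median distance of KO from the WT mean of 0.66, and it was the larger of the 2 distances in 14 of the 24 members (58.3%). For all genes with 50 counts the medians were 0.86 and 0.82, and the WT gap was the larger in 49.4%.

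**Figure D4:**
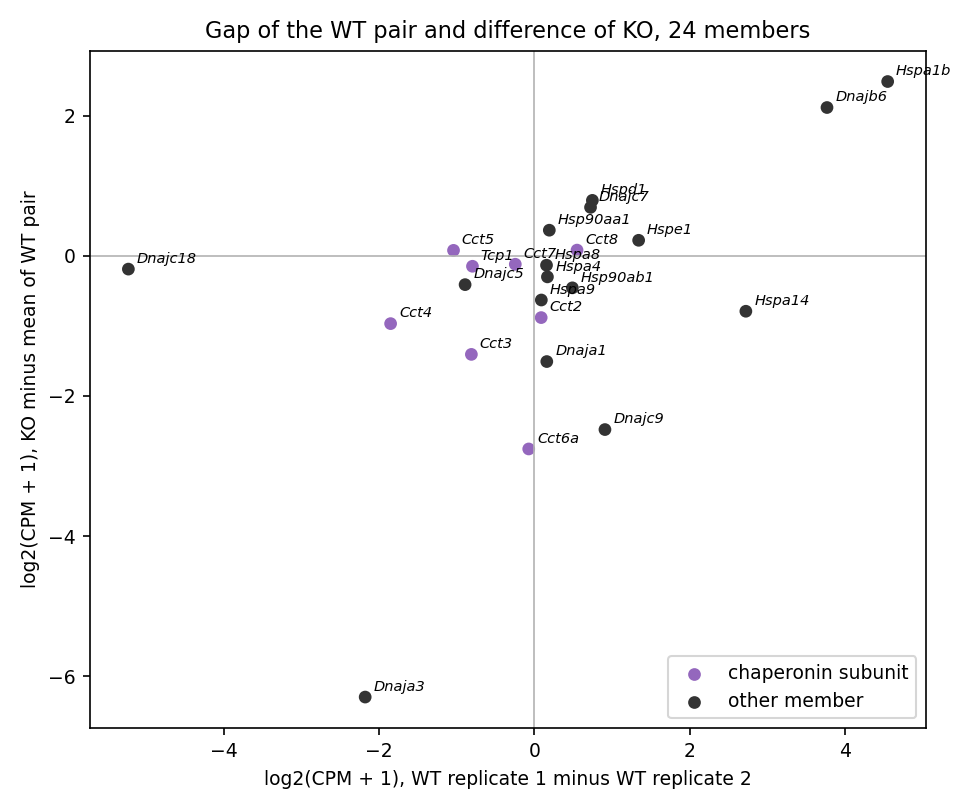
Each of the 24 members with at least 50 counts placed by the gap of the WT pair (replicate 1 minus replicate 2, horizontal) and the difference of KO from the WT mean (vertical), both in log2(CPM + 1). Hspa1b and Dnajb6 lie far right, Dnajc18 far left and Dnaja3 lowest, while Cct6a and Dnaja1 combine a small WT gap with a low KO value.

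HSP110 genes, the exchange factors of HSP70, gave 254, 305 and 212 CPM in sum. Hspa4 made up most of it with 75, 60 and 42 counts (207, 185 and 159 CPM, log2 fold change -0.27, SE 1.01, edgeR adjusted p 0.96). Hsf1, the factor that drives the heat shock response, had 30, 36 and 29 counts, or 83.0, 111 and 110 CPM, and the WT pair differed by less than counting error allows (95% interval of the ratio of WT replicate 2 to 1, 0.80 to 2.24), with KO between. Its log2 fold change was 0.22 (SE 1.27, edgeR adjusted p 0.98). On the deposited FPKM, 89.1% of Hsf1 was assigned to the non-coding NR_138589 in WT replicate 1 and in KO, and 99.1% to NM_008296 in WT replicate 2. Hspbp1 had 27, 38 and 29 counts. Of the 8 small heat shock protein symbols, only Hspb6 and Hspb9 (0, 11 and 0 counts) had any count. The other members at 0 throughout were Hspa2, Hspa12a, Dnaja4, 5 of class B and 6 of class C. Hspa12b, an atypical HSP70 of endothelium, had 0, 0 and 11 counts and was not tested. The remaining members with a count but under 50 in every library included the heat-inducible Dnajb1, the partner of HSP70 in disaggregation, with 28, 38 and 16 counts.

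In the neighbouring genes of the folding system edgeR gave no call either. The medians and signs of these lists stand beside a median log2 fold change of -0.31 over all tested genes. Of those genes, 3441 were positive and 4543 negative. At an unadjusted p under 0.05, edgeR had 2 genes higher (2.22%) and 9 lower (10%) of the 90 tested over the 7 lists described here, beside a background of 3.53% and 6.51%, and DESeq2 called 1 gene after adjustment, the calcium-binding lectin chaperone gene Calr, higher in KO (log2 fold change 1.33, DESeq2 adjusted p 0.023). Of 26 tested co-chaperones of HSP70 and HSP90, 0 passed in either direction, and the median log2 fold change was -0.25, with Fkbp4, Bag6 and Fkbp8 the most abundant. Fkbp4, an immunophilin of HSP90, had 248, 22 and 76 counts and so was also low in WT replicate 2, whereas Bag6 had 83, 165 and 102 and Fkbp8 160, 54 and 87. In the prefoldin and chaperonin cofactor list 0 of 10 tested genes passed, with a median of 0.17. Its most abundant members Pfdn5, Pdrg1 and Uri1 had 100, 32 and 53 counts, 48, 40 and 38, and 47, 36 and 1. In mitochondrial protein quality control 0 of 14 passed, 10 of 14 were negative and the median was -1.69, or -1.35 with a gene at 0 set to its bound. Trap1, the HSP90 of mitochondria, had 75, 65 and 43 counts, Lonp1, a matrix protease, 58, 94 and 35, and the prohibitin Phb2 117, 43 and 15. The endoplasmic reticulum chaperones, a separate folding system with its own stress response, had a median of 0.12, 9 of 18 positive and 0 past the edgeR test. Calr had 366, 311 and 634 counts (log2 fold change 1.32, SE 0.34, edgeR adjusted p 0.066), P4hb 230, 149 and 263, and Hsp90b1 156, 168 and 147, so the summed CPM of the list was 5008, 4210 and 6385.

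Clients of the chaperonin were read beside it. The 12 actin and tubulin genes summed to 10759, 9694 and 10230 CPM, with KO between the WT libraries. Of 9 tested genes 0 passed (median log2 fold change 0.10, beside -0.31 over all tested genes). Actb had 712, 958 and 639 counts, Tuba1b 882, 436 and 501, and Tubb5 610, 562 and 568. Among the partners of Hsf1, Hsf2 had 21, 27 and 0 counts (unadjusted p 0.021, edgeR adjusted p 0.37). In KO it was at least 6.17-fold lower against the floor of 3 counts (counting error only). Hsbp1 had 43, 18 and 31 counts, Ep300 8, 28 and 8, and 0 of 3 passed. Immediate early genes, transcription factors and others induced within minutes of a stimulus, had a median of -1.29 with 0 of 10 past the test. The median over all tested genes was -0.31. Their summed CPM was 1286, 1317 and 1118. Ier2 was low in WT replicate 2 as the inducible HSP70 genes were, with 51, 12 and 81 counts, but Jun had 42, 43 and 81 and Myc 155, 227 and 85.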

How the data were processed

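Per the labels' protocols, sorted LKS cells were the source of RNA (RNeasy micro columns) and library kits were from NEB. Groups come from the sample titles. The authors deposited whole-number counts and FPKM values per RefSeq transcript. The submitters' processing notes name STAR and mm10 without versions, and the sources used here give neither the tools behind counts and FPKM nor whether strand was used. As a check, the reads implied by count, FPKM and transcript length had medians of 358613, 321421 and 260231. The gene count was the highest over a symbol's rows. CPM used the gene-count total, and log2 fold changes used TMM scaling. The test was the edgeR quasi-likelihood F-test (edgeR 4.0.16, R 4.3.3) after filterByExpr at a threshold of 0.05, with 1 residual degree of freedom, which takes KO to vary as much as the WT libraries do. SE is the absolute log2 fold change over the square root of F. The test was also run on simulated counts with planted changes. Only the direction and a minimum size of the median fold change were required there, so that run says nothing of calls among members with low counts. The WT libraries differed by more than counting error (chi-square 12.4 per gene). Members and lists were chosen with earlier results of these data known. Named members had at least 50 counts, a 2-fold size difference or were chaperonin subunits or Hsf1; from each list the 3 most abundant genes are given. Others are marked as named after their values were seen or stand with the sequences, at the lowest counts or in the HSP70, HSP110 and small heat shock groups. Alternatives were DESeq2 1.42.0, other scalings, filters and transcript summaries, and leaving out each WT library.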

Additional observations from a re-analysis of the deposited data

How the results depend on the processing

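In every fit run with a test, 0 members passed in either direction: DESeq2 size factors, library totals, upper quartile factors, DESeq2, no filter, at least 10 counts in every library or 50 in any, and the mean or sum over transcripts. The smallest adjusted p of any member was 0.12, for Dnaja3 with DESeq2. Against 1 WT library no test was possible, because no residual degree of freedom is left. No paired analysis was possible because KO has a single library and no replicate number. The median log2 fold change of members was -0.18 with at least 10 counts in every library or 50 in any. All genes tested with that filter had a median of -0.10. The members' median was -0.39 without WT replicate 1 and -0.16 without WT replicate 2, beside -0.13 and -0.11 over all tested genes. The filter tests fewer genes, and otherwise the cause was not tested. Of 41 members with at least 20 counts, 1 was 2-fold higher (background 12%) and 10 were 2-fold lower (background 22.6%). Without WT replicate 1, 4 of 24 members were higher and 7 lower, beside 21.2% and 28.6% of all genes with 50 counts. Without WT replicate 2, 1 of 24 was higher and 6 were lower, beside 18.1% and 28.3%. With TMM-scaled CPM, a pseudocount of 5 CPM or deposited FPKM, 4 of 24 were lower (backgrounds 17.6%, 17.2% and 17.1%). The log2 ratio of summed CPM was -0.20 for all members on summed FPKM. For class B it was 0.67 on summed FPKM and 0.25 with the mean over transcripts, and for class C -0.31 on summed FPKM and -0.59 with TMM scaling. For the chromosome 17 HSP70 cluster it was 0.21 to 3.42 without 1 WT library. Of 240 values of 24 named members under alternatives, 10 lay on the other side of 0. Cct5 was at -0.0204 with library totals and -0.0186 with upper quartile factors. When 1 WT library was left out, the log2 fold change ran from -0.39 to 0.63 for Cct5, -2.14 to 0.63 for Hspa14, -0.42 to 0.95 for Hspe1, -0.50 to 0.28 for Tcp1, -0.193 to 0.0318 for Cct7, -0.16 to 0.41 for Cct8, -0.81 to 0.0640 for Dnajc5 and -2.77 to 2.56 for Dnajc18. Depth limits most of the set, since 35 members with a count had under 50 in every library.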
